A study of Danio rerio with 14 samples.

Results

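Regions of the zebrafish genome that carried called H3K27ac peaks in all 3 normal thymus samples and in none of 4 IRF4-driven tumors were examined, and are called thymus-only regions here. They were found by merging the peak lists of the 7 samples wherever peaks overlapped by at least 1 bp. Of 98262 merged regions, 622 met the rule (0.633% of all merged regions). They were selected on the peak calls of all 7 samples, so the absence of tumor peaks and the presence of thymus peaks in them is the selection itself and not a result. The regions totalled 0.469 Mb, had a median width of 587.5 bp, and lay on chromosomes 1 to 25 as well as on alternate and unplaced sequences of GRCz11.

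The tumors were mCherry-sorted cells of zebrafish that express human IRF4, a lymphocyte transcription factor, together with mCherry under the zebrafish lck promoter. The thymus samples were mCherry-sorted cells of fish that express mCherry alone under the same promoter, taken at 3 months. Both groups thus share the lck-driven mCherry and the sort on it, and the lines were made in a Singapore wild-type strain. The tumors came from 4 lck:IRF4 fish, which the study lists apart from its line with mutant p53, and its wording leaves unclear whether the age of 3 months holds for the tumor fish too. The lck promoter is active in lymphocytes of different stages, so a library may mix lymphoid cells of several stages, but the cell content of these libraries was not measured. It is also not settled whether a thymus library came from 1 fish or from a pool. The samples keep the numbers of their labels, namely tumors 1, 2, 3 and 4 and thymus 2, 3 and 5.

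H3K27ac is the acetylation of lysine 27 on histone H3. It marks active promoters and active enhancers, and in developing T cells many enhancers gain or lose it as cells pass from double negative through CD4 CD8 double positive to single positive stages in the thymus. The lists give where a peak was called and how wide it was, but in most samples no height, so covered length (the bases of a region that lie under called peaks of a sample) is the measure used throughout. In bulk samples, fewer cells of a type and less acetylation per cell cannot be told apart.

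The lists held 26449, 32781, 30199 and 19809 peaks in tumors 1 to 4 and 31647, 40335 and 38814 peaks in thymus 2, 3 and 5. Their narrowest peaks measured 128, 127, 117 and 72 bp in the tumors and 50, 53 and 54 bp in the thymus samples, so a weak narrow stretch could enter a thymus list and not a tumor list. This bears on the selection, because 243 of the 622 regions had under 128 bp covered in at least 1 thymus list. When only peaks of at least 128 bp were used in every list, 383 regions met the rule, and when every list was reduced to its 19809 widest peaks, 344 did. The word batch stands in all peak names of thymus 2 and thymus 5 and in none of thymus 3 or the tumors, so this mark falls on thymus samples alone. The number of reads behind each list is not known from the lists, so no counting interval is given.

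The widths of the thymus-only regions ran from 99 to 3750 bp with quartiles of 378.5 and 934.5 bp. The median of 587.5 bp compares with 929 bp for the 465 regions called in every tumor but in no thymus sample (tumor-only regions), and with 1438 bp for the 7983 regions common to all 7 samples. Single peaks of the whole lists had medians of 445, 341, 410 and 329 bp in tumors 1 to 4. In thymus 2, 3 and 5 these were 178, 207 and 217 bp. The classes also join peaks from different numbers of lists, so no contrast is read from these widths. The median width of thymus-only regions depended on the rule, at 346, 347 and 325 bp without thymus 2, 3 or 5 and at 1169 bp with peaks merged within 500 bp. Many regions fell just outside the rule. A further 2558 regions were called in exactly 2 thymus samples and no tumor, with a median width of 288 bp, and 1450 of them lacked thymus 2 alone. On the other side, 523 regions had calls from every thymus sample plus exactly 1 tumor, with a median width of 912 bp, and tumor 4 was that tumor in 39 of them against 149, 161 and 174 for tumors 1, 2 and 3.

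The 3 thymus samples did not contribute equally. The median covered length of a thymus-only region was 204 bp in thymus 2, 324 bp in thymus 3 and 383.5 bp in thymus 5. The interquartile range was 125 to 364 bp in thymus 2, 192 to 627 bp in thymus 3 and 194 to 691 bp in thymus 5. Thymus 2 was thus the sample with the smallest calls in most regions, being the narrowest in 373 regions and the widest in 111. Thymus 5 was the widest in 284 regions and thymus 3 in 226. The mean covered length over the 3 samples was 443 ± 119 bp (SD, n = 3). Summed over all regions, thymus peaks covered 0.191, 0.307 and 0.329 Mb in thymus 2, 3 and 5, which is 40.6%, 65.3% and 70.1% of the length of the regions.

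**Figure D1:**
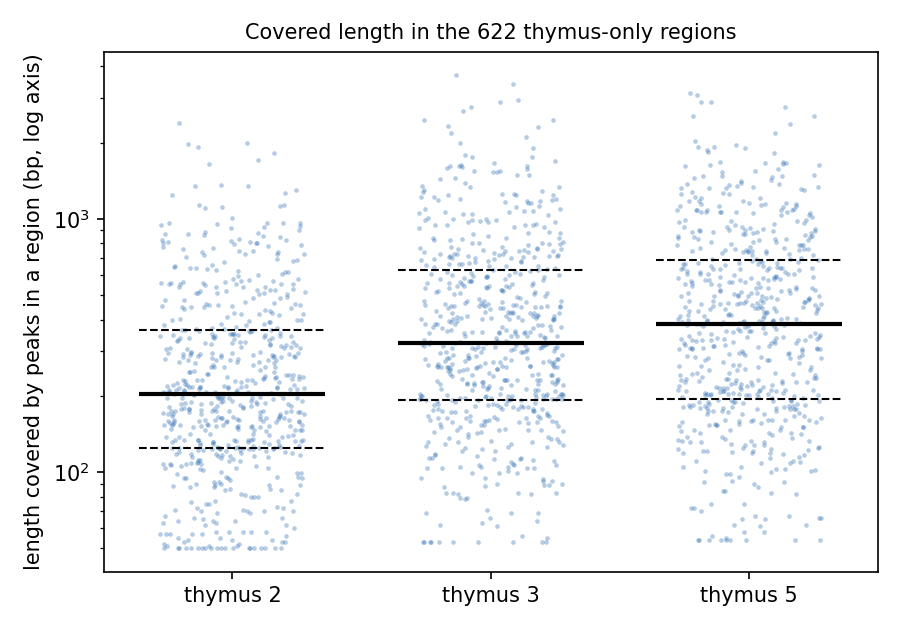
Covered length of the 622 thymus-only regions in each thymus sample, in bp on a log axis, with a point for each region, a solid line at the median and dashed lines at the quartiles. The median and both quartiles of thymus 2 (median 204 bp) lie below those of thymus 3 (324 bp) and thymus 5 (383.5 bp).

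Most regions held a single peak per list, in 534 regions for thymus 2 and in 540 each for thymus 3 and thymus 5. Within its own list the covered length of a thymus-only region was of ordinary to moderate rank. The median covered length stood at the 58.4th percentile of peak widths in thymus 2, the 65.2nd in thymus 3 and the 65.6th in thymus 5. The median single peak there measured 190, 288.5 and 330 bp, against 178, 207 and 217 bp over the whole lists. In the regions common to all 7 samples it measured 288, 713.5 and 951 bp. Regions wide in thymus 3 tended to be wide in thymus 5, with a Spearman rho of 0.55 across the 622 regions, against 0.35 for thymus 2 with thymus 3 and 0.34 for thymus 2 with thymus 5. These coefficients are descriptive, since regions are not independent replicates and the rule fixed that each sample has a call.

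Being called in all 3 samples did not always mean that the same bases were called. In 467 regions (75.1%) at least 1 base lay under a peak of every thymus list, and among these a median of 120 bp did. In the other 155 regions the 3 lists were joined through partial overlaps and shared no base. Bases under peaks of all 3 lists made up 18.4% of the length of the thymus-only regions, and each list covered at least 50% of the region in 95 of the 622.

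At the wide end, the covered length of 86 regions (13.8%) ranked in the top 25% of single-peak widths of each thymus list. For 21 regions (3.38%) it ranked in the top 10%. A covered length can sum several peaks, which raises its rank among single peaks. The 10 regions on chromosomes 1 to 25 with the highest lowest percentile over the 3 lists are described first. Their gene names, like all others here, were taken from the study's own annotation of GRCz11 regions, which gives the gene closest to a region and does not show that the region acts on it. That table is shortened and ordered by a test of the same samples, so whether a region has a name is not independent of the comparison. It named 226 of the 622 regions (36.3%), with 183 genes, against 51.6% of tumor-only regions and 2.53% of all merged regions, and nothing is read from these shares.

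The widest thymus-only region lay at *tet3*, which encodes an enzyme that oxidises 5-methylcytosine in DNA demethylation, on chromosome 5 from 14340621 to 14344370. It was covered over 2387, 3697 and 2893 bp in thymus 2, 3 and 5, and the nearest tumor peak was 11.5 kb away. A region common to all 7 samples was named for *tet3* too, and the nearest common region was 10.7 kb away. A region at *foxo1a*, whose mammalian ortholog FOXO1 is a transcription factor that maintains naive T cells and controls IL7R and CCR7, lay on chromosome 15 from 3323947 to 3326954 and was covered over 1355, 2316 and 2909 bp. The nearest tumor peak was 17.8 kb away. A region at *kdm7ab*, related to a mammalian histone demethylase, lay on chromosome 25 from 17147176 to 17150528 and was covered over 1707, 2189 and 3152 bp. These regions were picked for a high rank in every thymus list, so their wide calls in all 3 samples, thymus 2 included, follow from the pick.

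A region at *myca*, a zebrafish gene of the MYC family of growth-regulating transcription factors, lay on chromosome 24 from 10620983 to 10622935 with 1122, 1793 and 1950 bp covered in thymus 2, 3 and 5. A tumor peak lay 2.86 kb from it, so the absence of tumor calls there did not extend far. The region at *higd1a*, which encodes a mitochondrial protein induced by hypoxia in mammals, lay on chromosome 2 from 2161947 to 2164287 with 1978, 2318 and 1931 bp. It held the longest run of bases under peaks of all 3 lists, 1750 bp. The region at *rbks*, encoding ribokinase, was not among the highest 10 and is named for its shared run of 1344 bp. It lay on chromosome 17 from 41038834 to 41040932 with 1344, 2099 and 1630 bp covered, so that in thymus 2 the whole covered length was shared. The other 5 regions of the highest 10 were closest to *zgc:136930*, *kiaa0040* and *gpr160* on chromosome 2, *marcksl1a* on chromosome 13 and *si:ch211-51a19.5* on chromosome 20, and their nearest tumor peaks were 1.29 to 2.36 kb away.

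Genes of the T cell lineage were looked up in a list of 15 T-cell genes. Thymus-only regions were named for 3 of them, *cd8a*, *il7r* and *id3*, while no tumor-only region and none common to all 7 was named for any of the 15. Since 4 of the 15 were named at any region at all, the table can place few of them, and no share is read from these counts. The lists of 4 B-cell, 3 granulocyte, 3 macrophage, 2 thymic epithelial and 3 erythroid genes had no gene named at any region, so these lists cannot check the content of the samples either way.

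At *cd8a*, the gene of the CD8 alpha chain, a co-receptor of double positive and cytotoxic T cells, there were 2 thymus-only regions on chromosome 21. The region from 11555540 to 11557379 was covered over 685, 1764 and 1540 bp in thymus 2, 3 and 5, and the region from 11558107 to 11558570 over 185, 433 and 464 bp. The nearest tumor peak was 23.2 kb from the wider region. Within 40 kb on each side of the middle of the locus, tumors 1 to 4 had 1, 9, 1 and 1 peaks. Thymus 2, 3 and 5 had 10, 26 and 24 there. Counts in these windows include the thymus peaks that chose the regions, where tumors have none by the rule. They are also not scaled to list length, so they are given as a description and no separation of the groups is read from them.

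At *id3*, which encodes an inhibitor of E protein transcription factors that acts downstream of pre-T-cell receptor and T-cell receptor signals in mammals, there were 3 regions on chromosome 17, of which the first and the last carry the gene name. The region from 27291736 to 27292922 was covered over 824, 603 and 305 bp in thymus 2, 3 and 5, and the region from 27317204 to 27318408 over 788, 765 and 580 bp. Between them, next to the first, the region from 27292994 to 27294527 was covered over 820, 1182 and 886 bp. Thymus 2 had the widest calls in the pair with the gene name and the narrowest in the region between them. Within 40 kb on each side, the tumors had 0, 5, 1 and 2 peaks and the thymus samples 17, 16 and 25.

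At *il7r*, the receptor chain for interleukin-7 that supports survival of early thymocytes and naive T cells, a single region on chromosome 21 from 22444710 to 22445122 met the rule. It was covered over 53, 307 and 184 bp in thymus 2, 3 and 5, with no base shared by all 3 lists. This region was marginal, and its surroundings were called in tumors as well. Tumors had 12, 14, 7 and 14 peaks within 40 kb on each side and thymus samples 14, 20 and 18, so the groups met at 14.

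**Figure D2:**
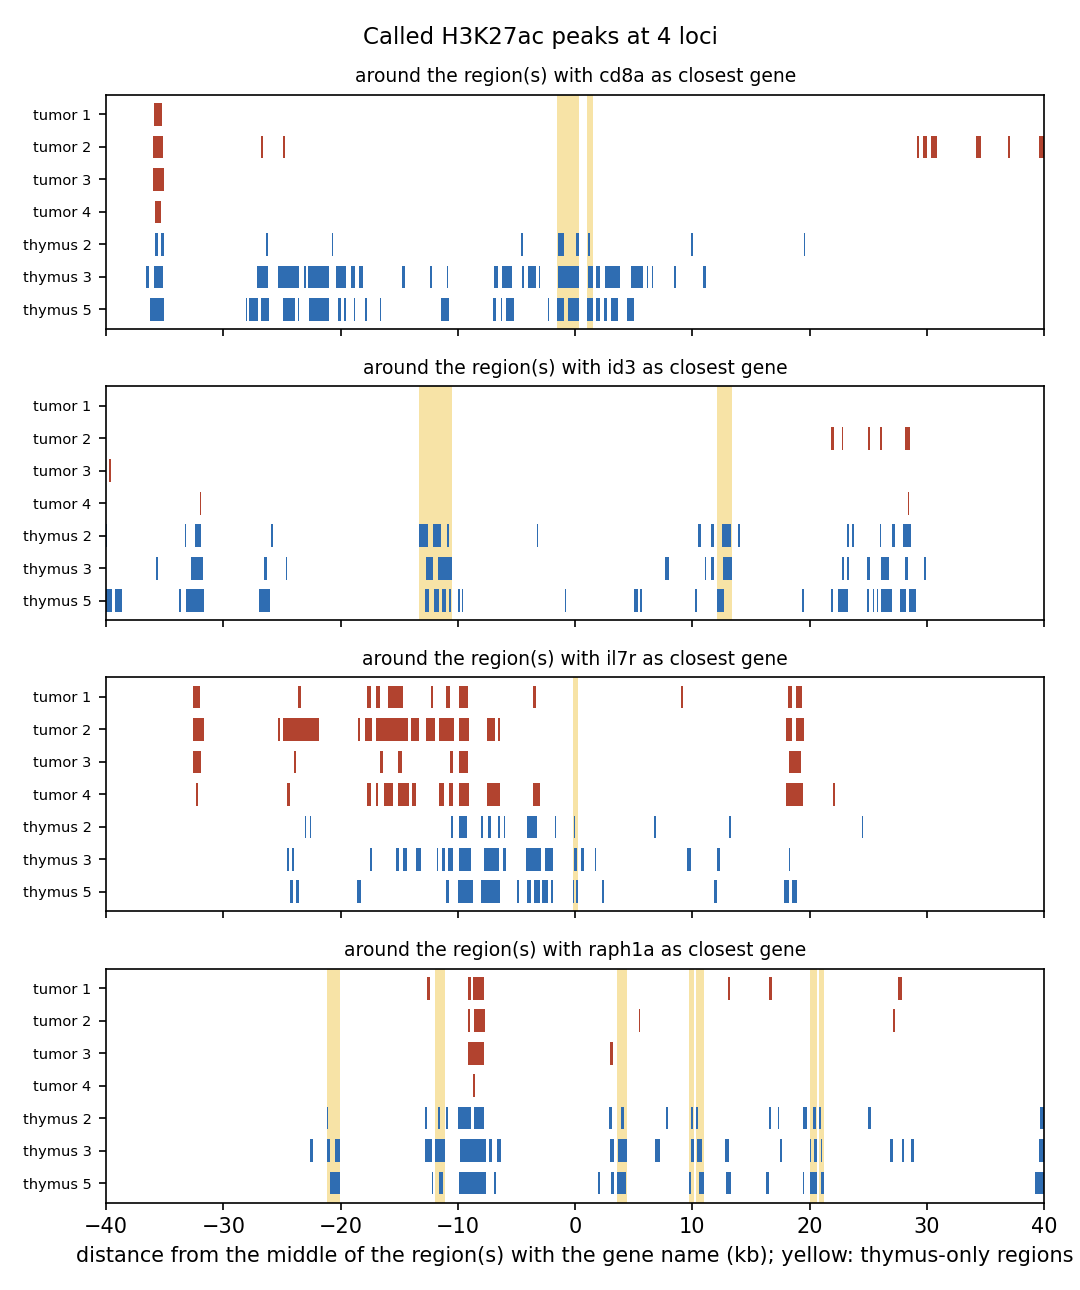
Called peaks of tumors 1 to 4 (upper rows) and thymus 2, 3 and 5 (lower rows) around the thymus-only regions at *cd8a*, *id3*, *il7r* and *raph1a*, plotted by distance in kb from the middle of each locus, with the thymus-only regions in yellow. Around *cd8a* tumors 1 to 4 had 1, 9, 1 and 1 peaks and the thymus samples 10 to 26. Around *il7r* tumor 2 and tumor 4 had 14 peaks each and so did thymus 2. The counts include the thymus peaks that chose the regions.

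Further named regions lay near genes with known roles in lymphocytes, chosen for description after the names were seen. Tumor peaks nearby are given for some of them only, so the other loci are not described as free of tumor calls. Among transcription factors, the region at *runx3*, whose mammalian ortholog silences CD4 in the CD8 lineage, was covered over 707, 1764 and 1330 bp in thymus 2, 3 and 5. The *runx3* locus was not free of tumor calls, since a region common to all 7 samples was named for it too. The cluster of 3 thymus-only regions there spanned 4, 3, 2 and 1 peaks of tumors 1 to 4. The region at *ets1*, an ETS factor needed for normal thymocyte development in mice, was covered over 642, 787 and 658 bp. The region at *rbpjb*, a DNA-binding partner of Notch, was covered over 343, 545 and 1206 bp. The second *foxo1* gene, *foxo1b*, also had a thymus-only region, covered over 563, 799 and 1251 bp, and its nearest tumor peak was 2680 bp away.

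Among receptors, the region at *ccr7*, a chemokine receptor that guides maturing T cells, was covered over 57, 157 and 386 bp in thymus 2, 3 and 5. The region at *cxcr4a*, a receptor for CXCL12, was covered over 209, 523 and 495 bp. The *ccr7* region was narrow in thymus 2, whereas the *cxcr4a* region was close to the thymus 2 median of 204 bp. The *cxcr4a* region had no base under peaks of all 3 lists. At *il23r*, a cytokine receptor subunit, a pair of neighbouring regions was covered over 241, 1624 and 1665 bp and over 551, 453 and 1058 bp. The region at *lcp2a*, the zebrafish counterpart of the SLP-76 adaptor of T-cell receptor signalling, was covered over 264, 683 and 479 bp. A tumor peak lay within 500 bp of it, at 382 bp, so the *lcp2a* locus was not free of tumor calls.

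Of the 183 genes, 34 were named at 2 or more thymus-only regions and 5 at 3 or more. The highest count was at *raph1a*, related to mammalian lamellipodin, an actin regulator of cell migration, with 7 regions on chromosome 9 between 13962260 and 14004645. The other 4 genes were *clrn1*, *ddx3xb*, *gsk3ab* and *sugct*, with 3 regions each. Counting merged regions of any class, *raph1a* was named at 14, and *clrn1*, *ddx3xb*, *gsk3ab* and *sugct* at 4, 5, 7 and 4. A gene named at more regions can hold more thymus-only ones, so no ranking of genes is read from these counts. For 29 genes a region common to all 7 samples was named too, so a thymus-only region at a gene did not mean that the gene lacked tumor peaks.

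Grouping of thymus-only regions along the sequences was described by joining neighbours. No comparison with an even scatter was made, so the shares do not show whether the regions are scattered or bunched. When regions less than 50 kb apart were joined, 389 (62.5%) stood alone, 70 pairs formed, and 93 (14.95%) fell into 25 clusters of 3 or more. Of the 465 tumor-only regions, 325 (69.9%) stood alone and 62 (13.3%) fell into 18 clusters. The shares are descriptions of sets of unequal size and no test was made of them. Clustering depended on the distance used, with 49 regions in clusters at 10 kb.

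The largest cluster was the 7 regions at *raph1a*. Its regions were covered over 1147, 3593 and 3426 bp in all in thymus 2, 3 and 5, and the span held 5, 3, 2 and 1 peaks of tumors 1 to 4 and 17, 18 and 16 peaks of the thymus samples. Individual regions there were small in thymus 2, down to 50 bp, and 3 of the 7 had no base under peaks of all 3 lists. A cluster of 5 regions on chromosome 17 from 39935684 to 39964957 showed the opposite order, with 3304, 845 and 1847 bp covered. A cluster of 5 on chromosome 5 from 58628007 to 58640474 was likewise led by thymus 2, with 2011, 978 and 1073 bp. This order did not hold for the other clusters of 5, where thymus 2 was lowest. They lay on chromosome 23 (949, 2879 and 2066 bp), an alternate sequence (1476, 1857 and 1705 bp) and an unplaced sequence (914, 1789 and 2429 bp). In the chromosome 17 cluster the tumors had 0, 0, 7 and 1 peaks and the thymus samples 29, 8 and 15. In the chromosome 5 cluster the tumors had 0, 0, 4 and 1 peaks and the thymus samples 20, 6 and 15. By the rule, each region of a cluster holds a peak of every thymus list and none of a tumor. The peak counts given for these spans are thus partly set by the selection, and no contrast between the groups is read from them. In the chromosome 17 and chromosome 5 clusters tumor 3 had peaks between the regions while tumors 1 and 2 had none.

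By sequence, 534 regions (85.9%) lay on chromosomes 1 to 25, 62 (9.97%) on alternate sequences and 26 (4.18%) on unplaced ones, against 83.4%, 14.98% and 1.65% of all merged regions. Alternate sequences repeat loci of the chromosomes, so a region there may describe a locus counted elsewhere. On chromosomes 1 to 25 there were 6.52 thymus-only regions per 1000 merged regions. The values were highest on chromosome 23 with 10.1 (29 regions), chromosome 9 with 9.51 (29) and chromosome 5 with 9.49 (39), and lowest on chromosome 14 with 2.95 (8) and chromosome 12 with 3.60 (9). This order depended on the denominator. Per 1000 regions called in all 3 thymus samples, chromosome 9 was highest with 91.5, and chromosomes 23 and 5 had 75.1 and 74.9. Chromosome 14 was again lowest, with 27.4. The 29 regions of chromosome 9 include the 7 at *raph1a*. Unplaced sequences had 16.1 per 1000, from 26 regions on 15 sequences, and 5 of these 26 lay together on 1 sequence with no tumor peak in their span. A further 4 of the 26 lay together on another unplaced sequence. For tumor-only regions the value on unplaced sequences was 1.24 per 1000, from 2 regions only. Both values rest on few regions, and no contrast is read from them.

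**Figure D3:**
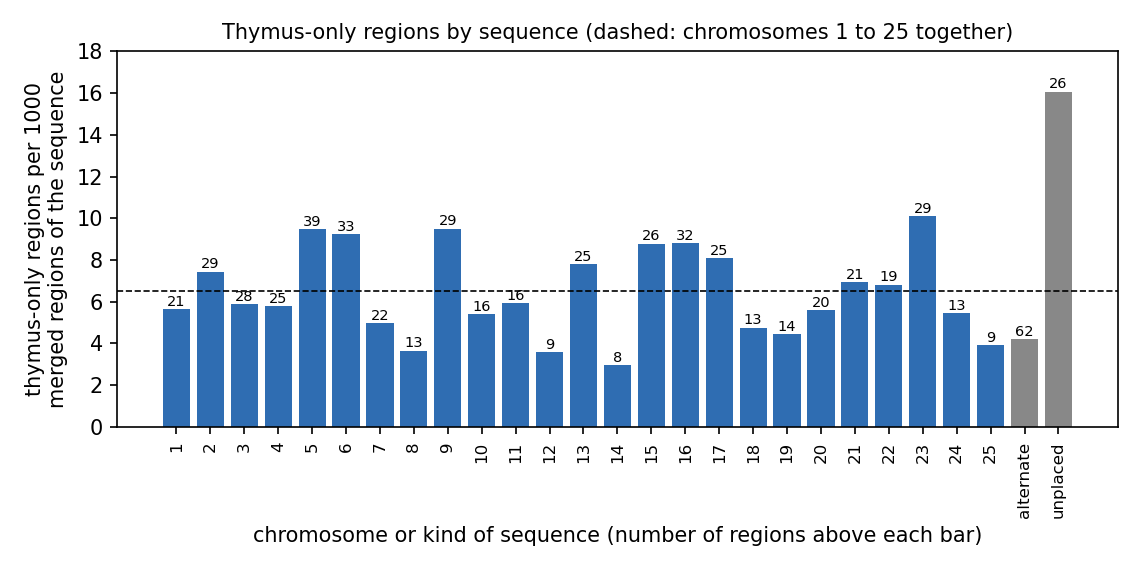
Thymus-only regions per 1000 merged regions on each of chromosomes 1 to 25, on alternate and on unplaced sequences, with the number of thymus-only regions above each bar and a dashed line at the value of chromosomes 1 to 25 together (6.52). Chromosomes ranged from 2.95 (chromosome 14) to 10.1 (chromosome 23), and unplaced sequences reached 16.1 from 26 regions.

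Thymus-only regions lay both next to and far from regions common to all 7 samples. The median distance to the nearest common region was 20.5 kb (quartiles 3.21 and 68.5 kb) over the 594 regions on a sequence that holds one. Of these, 109 (18.4%) lay within 1 kb, 220 (37.0%) within 10 kb and 115 (19.4%) beyond 100 kb. The regions within 1 kb had a median width of 451 bp and those farther away 636 bp. Tumor-only regions were set farther off, at a median of 32.6 kb with 4.06% within 1 kb. Regions called in exactly 2 thymus samples and no tumor were nearer, at a median of 17.2 kb with 22.7% within 1 kb. Regions called in every thymus sample plus exactly 1 tumor lay between, at 28.6 kb with 9.68% within 1 kb. The 42463 regions called in exactly 1 thymus sample and no tumor had the largest median, 43.9 kb, with 10.8% within 1 kb. Calls of the thymus side alone were thus not always nearer than tumor-only regions. Common regions themselves lay at a median of 26.5 kb from the next common region, with 5.83% within 1 kb. These differences were not tested, because they involve the lists that chose the regions.

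**Figure D4:**
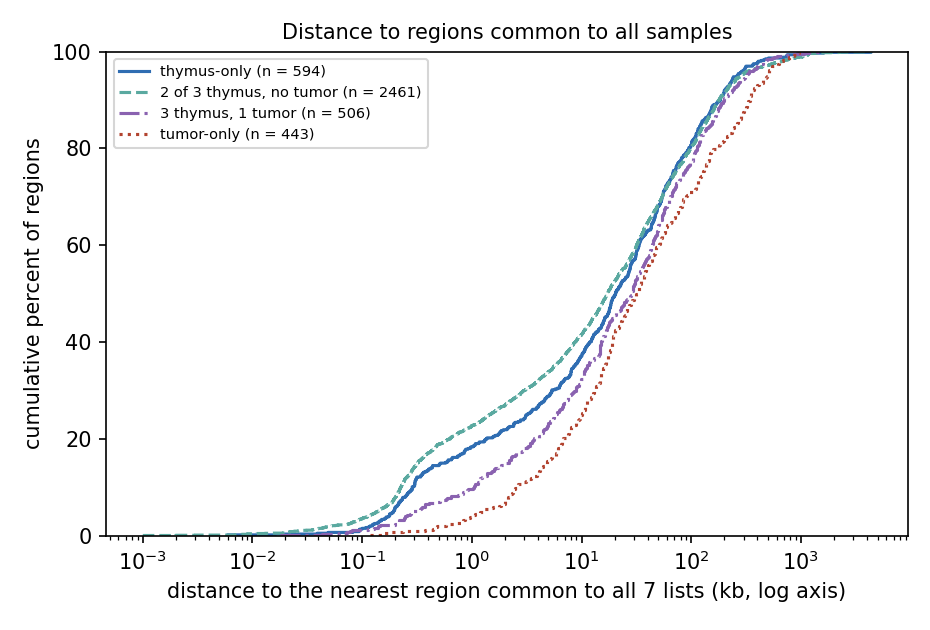
Distance from thymus-only regions and from other classes of regions to the nearest region common to all 7 samples, in kb on a log axis, as the cumulative percentage of regions. For thymus-only regions the curve reaches 18.4% at 1 kb and 37.0% at 10 kb, whereas for tumor-only regions it reaches 4.06% at 1 kb.

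Distances to tumor peaks were taken for thymus-only regions alone. Without the same distances for other classes, they are not read as closer or farther than usual. The nearest peak of any tumor was at a median of 2081 bp (quartiles 433 and 9070 bp) over the 613 regions on a sequence with a tumor peak, and 9 regions had none on their sequence. A tumor peak lay within 500 bp of 168 regions (27.01%), within 1 kb of 240 (38.6%) and within 10 kb of 469 (75.4%). At the other end, 19 regions were over 50 kb from any tumor peak. Regions with a tumor peak within 1 kb had a median width of 455 bp, and those with none within 10 kb one of 766 bp. The region on the chromosomes farthest from a tumor peak was at *chfr*, which encodes a ubiquitin ligase of a mitotic checkpoint in mammals, on chromosome 5 from 17624628 to 17625391. It was covered over 309, 717 and 650 bp in thymus 2, 3 and 5, and its nearest tumor peak was 128 kb away. The other 4 of the farthest 5 lay at 75.8 to 116 kb, namely 1 each on chromosomes 4, 7, 9 and 11, and the region on chromosome 11 was closest to *psmd14*, a proteasome subunit gene.

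Peaks outside the thymus-only regions were also counted. The share of each list's peaks that lay 1 to 10 kb from a thymus-only region was 1.95%, 1.71%, 1.92% and 2.12% in tumors 1 to 4, and 3.91%, 3.31% and 3.28% in thymus 2, 3 and 5. Every thymus sample was above every tumor here, and around tumor-only regions every tumor (2.17% to 2.39%) was above every thymus sample (0.923% to 1.21%), so either selection gave such a separation. The means around thymus-only regions were 1.92 ± 0.168% in tumors (SD, n = 4) and 3.50 ± 0.354% in thymus (SD, n = 3), a difference of -1.58 percentage points. The peaks counted lie beside regions chosen by the same 7 lists and are not independent of that choice, so the difference is given as a description, with no test, of how far it extends around the chosen regions.

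The difference was of the same sign at 1 to 5 kb, 1 to 25 kb and 10 to 50 kb from the regions. Among the 5 lists without the batch word, where only thymus 3 stands for the thymus, it was -1.39 points. In density, the first 1 kb beside the regions held 34.5 to 41.4 peaks per Mb per 10000 peaks of a list in tumors and 91.8 to 95.2 in thymus, and at 50 to 100 kb the values were 8.62 to 9.30 in tumors and 9.12 to 9.30 in thymus. The groups thus overlapped at 50 to 100 kb. The gap in the first 1 kb was not particular to thymus-only regions, since around the regions common to all 7 samples the density there was 11.9 to 13.8 in tumors and 30.4 to 45.7 in thymus. Around those common regions the share at 1 to 10 kb was 11.2 ± 1.37% in tumors and 11.97 ± 2.55% in thymus (SD, n = 4 and 3), a difference smaller than the spread between samples.

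**Figure D5:**
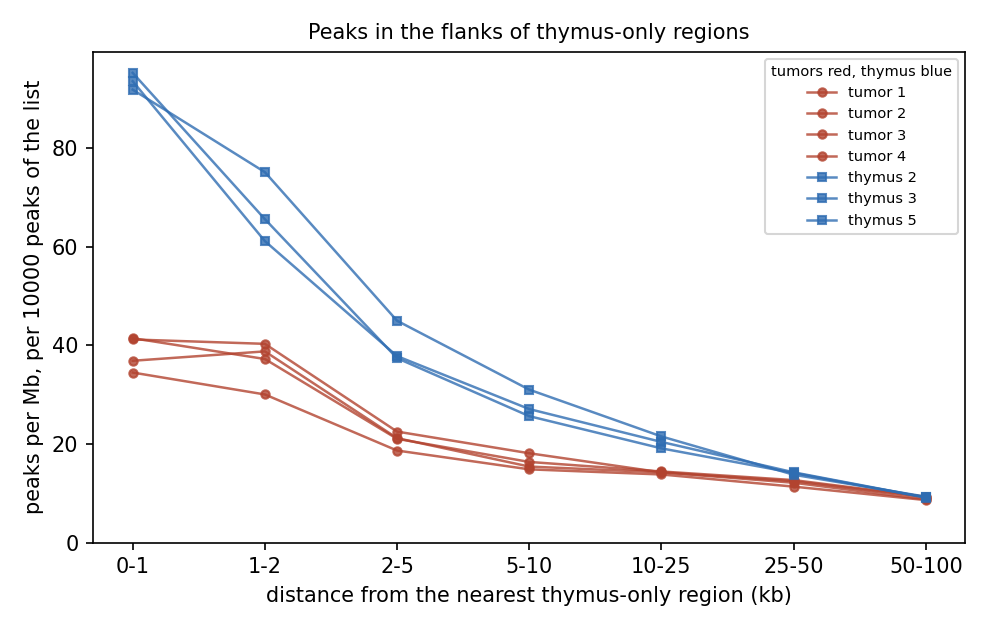
Density of called peaks around thymus-only regions by distance from the region, in peaks per Mb per 10000 peaks of the list, for tumors 1 to 4 and thymus 2, 3 and 5. Tumors (34.5 to 41.4) lie below thymus samples (91.8 to 95.2) in the first 1 kb, and the groups overlap at 50 to 100 kb. Around regions common to all 7 samples, which are not plotted, tumors (11.9 to 13.8) were also below thymus samples (30.4 to 45.7) in the first 1 kb.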

How the data were processed

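H3K27ac ChIP-seq of 4 tumors and 3 thymus samples was used as deposited peak lists, without the input libraries. According to the labels and methods, single-end reads were aligned by the authors (Bowtie2, GRCz11) and freed of duplicates (samtools), after which MACS2 called broad peaks for each sample over whole cell lysate. The deposited values used are start and end positions. The score, fold enrichment (a ratio) and −log10 p and q values that the authors deposited for tumor 1 alone were not used. Depth is not known from the lists.

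Regions, covered lengths, distances and clusters were computed with Python 3.11.15, NumPy 2.4.6 and SciPy 1.17.1, plotted with matplotlib 3.10.9, and the steps were tested on simulated data. An exact permutation test over samples had been set for the shares in flanks. It is not reported, because the regions were chosen by the same sample labels. Regions, gene lists and tests were chosen with earlier results of these data known. Regions named by rule lay on chromosomes 1 to 25, with ties broken by position. They included the 10 with the highest lowest within-list percentile of covered length, ranked among single-peak widths. The 5 with the longest run under peaks of all 3 thymus lists and the 5 farthest from a tumor peak were added. So were the members of the 3 largest clusters and the regions named for a listed marker gene. Other genes in the text were named for their number of regions, or after their names or values were seen. Gene names came from the study's region annotation, of which only positions and names were read and none of its comparisons. No genome of this build was used, so no sequence is shown. Alternatives were the width limit, equal list lengths, merge gaps, overlap rules, join and flank distances, chromosomes only, the replicate block and leaving out each sample.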

Additional observations from a re-analysis of the deposited data

Results flagged for a closer look

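The number of thymus-only regions with a peak close by set tumor 4 apart from the other tumors. A peak of tumor 4 lay within 1000 bp of 110 of the 622 regions, against 168, 164 and 173 in tumors 1, 2 and 3, and its gap to the nearest tumor was 0.857 of the whole range, above Dixon's limit for 4 samples. Tumor 4 also had the shortest list, 19809 peaks, and relative to list length it did not stand apart. Its density in the first 1 kb beside the regions was 41.2 peaks per Mb per 10000 peaks of the list, within the 34.5 to 41.4 of the tumors, and in the share of the list at 1 to 10 kb the most distant tumor was tumor 2 (1.71%), below that limit. Chance passes this limit in about 1 of 20 groups, and 3 measures were looked at. The regions were chosen by the absence of calls in every tumor, tumor 4 included. The count is thus not independent of that choice, and the limit serves as a flag only.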

How the results depend on the processing

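The number of thymus-only regions depended most on the rule. It was 383 with peaks of at least 128 bp, 344 with the 19809 widest peaks of every list and 95 with at least 50% of a region covered by each thymus list, and 534, 649, 489 and 467 under chromosomes only, merging within 100 bp, merging within 500 bp and requiring a shared base. Leaving out 1 sample gave 662 to 2103 regions, with 2103 without thymus 2, 1273 without thymus 3 and 1275 without thymus 5, a widening that follows from asking for fewer samples. Over the same exclusions the median width was 325 to 628 bp, the regions in clusters 102 to 630 and the median distance to a common region 14385 to 22938 bp. With thymus 2, 3 or 5 left out, the only exclusions run for it, the mean covered length was 399.7 to 510.8 bp. The mean covered length was 568.7 bp with peaks of at least 128 bp, the median width 1169 bp with peaks merged within 500 bp, and 49 regions were in clusters joined within 10 kb.

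The difference in flanking share kept its sign under every alternative run. It was -1.69 to -1.37 points with 1 sample left out and -1.39 among lists without the batch word. Replicate numbers 2 and 3 occur in both groups but belong to different fish and pair nothing. With them as a replicate block the difference was -1.80. Under choices added after seeing the data it was -1.11 for regions over 10 kb from a common region and -1.40 for regions with a shared base. These values are descriptions, with no test. Stricter limits on −log10 p or fold were not run, since 1 list holds these values. The study states a sequencing depth for its ChIP-seq as a whole, without a value per sample. Usable depth behind each list is unknown, so a missing tumor call does not show absent acetylation.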

Other observations

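At 4 genes, *celf2*, *myca*, *sc:d189* and *spry2*, thymus-only regions and tumor-only regions were both named. At *myca*, the tumor region on chromosome 24 from 10542752 to 10544044 was covered over 746, 1252, 362 and 234 bp in tumors 1 to 4, and the nearer thymus-only region, from 10619965 to 10620756, over 296, 661 and 792 bp in thymus 2, 3 and 5, 75.9 kb away. At *sc:d189* the regions were 3.89 kb apart on chromosome 1, the tumor region being covered over 1207, 1442, 1861 and 1387 bp in tumors 1 to 4 and the thymus-only region over 244, 776 and 743 bp in thymus 2, 3 and 5. At *spry2*, whose mammalian ortholog restrains receptor tyrosine kinase signalling, 2 thymus-only regions lay 46.3 and 26.1 kb from the nearest such tumor region. At *celf2*, an RNA-binding splicing regulator of T cells in mammals, the distance was 278 kb. These genes were singled out after their values were seen, and a closest gene need not be the gene on which a region acts.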
